A study of Rattus norvegicus with 8 samples.

Results

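The aryl hydrocarbon receptor (Ahr) pathway was examined in rat ATII cells (alveolar type II cells, which make lung surfactant) after expression of an active mutant of HIF1a. The list held 7 genes chosen by name: Ahr, Ahrr, Cyp1a1, Cyp1a2, Cyp1b1, Tiparp and Aldh3a1. A gene entered if the array's annotation gave a probe set that symbol and no other, which held for 5 of the 7 genes among 18166 genes in all, each with 1 probe set. Cyp1a2 and Tiparp were not analysed here. The study used freshly isolated ATII cells from 4 male Sprague Dawley rats (age not given), and each rat also stands for its own day of RNA extraction. Each rat gave a well exposed to AdGFP, an adenovirus encoding green fluorescent protein, and a well exposed to AdHIF1a, an adenovirus encoding constitutively active mutant HIF1a. The dose in all wells was 20 infectious particles a cell (the multiplicity of infection). Cells met the virus for 3 h with 2% fetal bovine serum present, were plated on 80% rat tail collagen and 20% Matrigel with 5% rat serum, and were harvested for total RNA after 24 h. The labels name neither the mutation nor the species of the HIF1a insert, and all wells carried an adenovirus.

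Ahr is a ligand-activated transcription factor of the bHLH-PAS family. It waits in the cytosol with chaperones, enters the nucleus when it binds a pollutant such as a dioxin or a tryptophan metabolite, and pairs with Arnt to bind DNA at its target genes. HIF1a uses the same partner, Arnt, to bind its own targets, so the comparison asks whether the targets of Ahr fall when HIF1a is active. In lung, Ahr is known for the induction of cytochromes P450 that oxidise components of smoke and exhaust.

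The receptor gene Ahr fell in the AdHIF1a wells, by 1.33-fold, while none of its 4 measured targets in the list passed the test. Cyp1a1 and Cyp1b1 had differences of -0.30 and -0.29 on the log2 scale and lay lower in 4 of 4 rats without reaching the threshold. A fall in 4 of 4 rats occurred in 20.4% of all genes. Ahrr and Aldh3a1 differed by -0.01 and -0.04. In all, 1 of 5 members was called lower and 0 were called higher, against 11.5% and 8.68% of all genes, or 20.2% in either direction. A call means that a paired limma fit over the 18166 genes gave a p below 0.05 after Benjamini-Hochberg adjustment, and differences are AdHIF1a minus AdGFP within rats ± SE. The one call did not hold in every fit: with the variance prior taken from all 36685 probe sets, 0 members were called, against 7.77% of all genes lower and 5.68% higher, or 13.4% in either direction. The median difference of the 5 members was -0.29, and that of all genes was -0.005.

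The arrays carried signals from 1.42 to 13.57 on the log2 scale, with array medians from 5.00 to 5.20. There are no detection calls. Of all genes, 1576 (8.68%) were higher and 2098 (11.5%) lower, and 936 and 2161 after each array was centred on its median. The ATII markers Sftpb and Lamp3 gave AdGFP means of 11.06 ± 0.51 and 12.20 ± 0.05 (SD, 4 rats), with 98.4% and 99.2% of genes lower in mean signal. Of 7 measured ATII markers, 3 were higher with AdHIF1a, such as Sftpa1 (0.89 ± 0.09), and 4 were lower, such as Napsa (-1.52 ± 0.16). These counts were 2 and 2 without rat 1 or rat 4 or with the prior from all probe sets, and 1 and 3 without the block. Over all genes, higher and lower calls numbered 1519 and 2284 without rat 1 and 921 and 1196 without rat 4. They numbered 1032 and 1411 with the prior from all probe sets and 1497 and 1955 without the block. All 7 measured HIF1 targets of a check list were higher, with a median difference of 1.98, and Car12, a carbonic anhydrase, differed most (5.94 ± 0.09). Car9, another carbonic anhydrase, rose by 3.21 ± 0.19, Pdk1, a brake on mitochondrial pyruvate use, by 1.98 ± 0.09 and Ndrg1 by 1.38 ± 0.08.

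The regions upstream of Ahrr, Cyp1b1 and Nqo1 are shown because they carry the core motif through which Ahr and Arnt bind DNA. They are the 250 bases before the RefSeq start site, read 5′ to 3′ along the gene, from the rat build GRCr8. Capitals mark GCGTG or its other-strand form CACGC. The 3 regions lie at chr1:30821969-30822218 on the plus strand, chr6:21094315-21094564 on the plus strand and chr19:52220268-52220517 on the minus strand, in that order.
Ahrr: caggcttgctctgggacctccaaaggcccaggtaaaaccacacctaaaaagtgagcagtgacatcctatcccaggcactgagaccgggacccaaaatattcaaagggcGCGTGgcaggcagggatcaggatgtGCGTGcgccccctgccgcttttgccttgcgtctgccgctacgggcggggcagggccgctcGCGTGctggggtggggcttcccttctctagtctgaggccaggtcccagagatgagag
Cyp1b1: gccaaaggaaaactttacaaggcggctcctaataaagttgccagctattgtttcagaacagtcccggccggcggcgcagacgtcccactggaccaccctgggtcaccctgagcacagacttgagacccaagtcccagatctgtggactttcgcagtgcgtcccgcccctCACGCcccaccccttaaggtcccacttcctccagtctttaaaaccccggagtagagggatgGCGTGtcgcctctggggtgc
Nqo1: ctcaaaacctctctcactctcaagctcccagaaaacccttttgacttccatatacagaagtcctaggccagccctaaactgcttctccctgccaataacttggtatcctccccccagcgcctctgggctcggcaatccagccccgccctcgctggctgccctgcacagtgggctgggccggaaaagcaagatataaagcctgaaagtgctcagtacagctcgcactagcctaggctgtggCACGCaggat

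Ahrr held 3 matches to GCGTG, whose first bases lie 142, 117 and 57 bases before the start site. Cyp1b1 held 2 matches, at 81 bases on the other strand and at 20 bases. Nqo1 held 1 match on the other strand, at 10 bases. The region of Ahr at chr6:57998902-57999151, on the minus strand, held 0 matches. The HIF core motif ACGTG was searched on both strands. It overlaps the Ahr motif in its last 4 letters, and it had 0 matches in the regions of Ahr, Ahrr, Cyp1b1 and Nqo1. Over 33469 rat promoters of the same length, 25.9% held GCGTG, 16.6% held ACGTG and 5.76% held both. Of the promoters in the table, 3 of 5 listed members, 11 of 17 other Ahr targets and 3 of 7 HIF1 targets held GCGTG, and 0, 5 and 2 of them held ACGTG. The promoters of Cyp1a1, Aldh3a1, Ereg, Socs2 and the HIF1 target Ndrg1 were not analysed here. Those of Cyp1a2, Tiparp, Ugt1a6, Ugt1a7c and the HIF1 target Bnip3 were searched though their signals were not analysed. Of these, Tiparp, Ugt1a6, Ugt1a7c and Bnip3 held GCGTG, and Bnip3 also held ACGTG. A match is a run of letters and was not measured as a bound site.

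Ahr gave log2 signals of 9.0, 8.81, 8.64 and 8.44 in the AdGFP wells of rats 1 to 4, and of 8.34, 8.53, 8.31 and 8.08 in their AdHIF1a wells. The AdHIF1a well was the lower one in every rat, but the ranges of the groups overlapped, since the rats themselves differed. The differences within rats were -0.66, -0.28, -0.33 and -0.36, of which that of rat 1 was the largest. The fit gave -0.41 ± 0.09, or 1.33-fold lower (95% interval 1.14 to 1.54, adjusted p = 0.0214, probe set 17821591). Without the rat as a block the adjusted p was 0.0619, with the variance prior from all probe sets it was 0.0541, and without rat 2, 3 or 4 it was 0.0528, 0.0584 or 0.0725. In bulk RNA, fewer cells that express Ahr and less Ahr RNA per cell cannot be told apart.

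Cyp1a1, the cytochrome P450 that is the classic readout of Ahr activity, gave 4.24, 4.43, 4.07 and 4.07 in the AdGFP wells and 3.87, 4.03, 3.99 and 3.72 in the AdHIF1a wells. Every AdHIF1a well lay below every AdGFP well, and rat 3 showed the smallest difference (-0.08). Such a separation with AdHIF1a lower occurred in 12.2% of all genes. The fit gave -0.30 ± 0.09, or 1.23-fold (95% interval 1.07 to 1.42, adjusted p = 0.0540, unadjusted p = 0.0112, probe set 17844555). The adjusted p fell below the threshold with quantile normalization (0.0367), array weights (0.0290), the filter at the lower quartile (0.0437) and without rat 3 (0.0483). It rose to 0.108, 0.212 and 0.184 without rat 1, 2 or 4. With the prior from all probe sets it was 0.104, and without the block 0.0861. The mean signals of 4.20 ± 0.17 and 3.90 ± 0.14 (SD) lay below all array medians, and 21.9% of genes had a lower mean signal.

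Cyp1b1, a related P450 that is also found in mesenchymal cells, gave 4.96, 4.65, 4.69 and 4.52 with AdGFP and 4.62, 4.44, 4.61 and 4.0 with AdHIF1a. All 4 rats were lower with AdHIF1a, most in rat 4 (-0.52) and least in rat 3 (-0.08), and the groups overlapped. The difference was -0.29 ± 0.10, or 1.22-fold (95% interval 1.04 to 1.43, adjusted p = 0.0808, unadjusted p = 0.0197, probe set 17819669). These 2 P450 genes were the members that passed an unadjusted p of 0.05 in limma among the 4 targets. Like Cyp1a1, Cyp1b1 lay below the array medians in both groups, at 4.71 ± 0.18 and 4.42 ± 0.29 (SD).

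Ahrr, the repressor that Ahr induces and that competes with it for Arnt, gave 3.86, 3.54, 3.48 and 3.20 with AdGFP and 3.53, 3.52, 3.45 and 3.55 with AdHIF1a. Rat 1 was lower and rat 4 higher with AdHIF1a, by -0.33 and 0.35, and the other rats differed by -0.02 and -0.03. The difference of -0.01 ± 0.12 had a 95% interval of -0.28 to 0.27 (adjusted p = 0.975, probe set 17611299), and its sign turned with array weights or without rat 1. Of all genes, 14.0% had a lower mean signal, and no detection call tells whether Ahrr lay above background.

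Aldh3a1, an aldehyde dehydrogenase of the Ahr gene battery, gave 4.94, 4.80, 5.05 and 4.87 with AdGFP and 4.71, 4.99, 4.84 and 4.96 with AdHIF1a. Rats 1 and 3 were lower with AdHIF1a and rats 2 and 4 higher. The difference was -0.04 ± 0.10 (95% interval -0.28 to 0.20, adjusted p = 0.833, probe set 17646585), and its sign turned with array weights or without rat 1 or rat 3. The intervals of Ahrr and Aldh3a1 spanned both signs, so neither a small fall nor a small rise was separable from none.

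**Figure D1:**
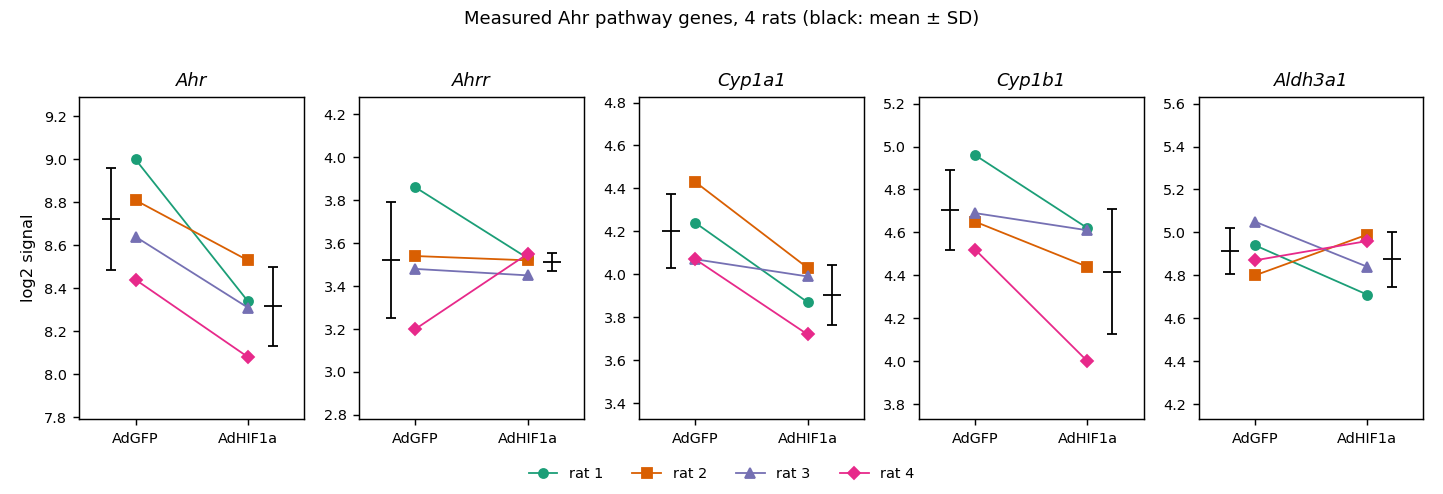
Log2 signal (vertical axis) of the 5 measured Ahr pathway genes in the AdGFP and AdHIF1a wells of 4 rats; lines join the wells of a rat and black marks give the mean ± SD of each group. Lines of Ahr, Cyp1a1 and Cyp1b1 slope down in 4 of 4 rats, as in 20.4% of all genes, while those of Ahrr and Aldh3a1 cross.

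For Ahr and Cyp1a1, the members with the largest differences, the nearest genes by profile were looked up. The genes whose profile over the 8 arrays lay nearest to that of Ahr, after the mean of each gene was subtracted, were Tmem176a, St3gal1 and Igsf11. Their root mean square distances from Ahr were 0.0753, 0.0806 and 0.0941 log2 units, and their differences were -0.51, -0.54 and -0.40. Nearest to Cyp1a1 were Hgf, Ttll7 and Btbd7, at distances of 0.0512, 0.0534 and 0.0648. Hgf, which encodes hepatocyte growth factor, had AdGFP and AdHIF1a means of 3.72 and 3.41.

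Arnt, the shared partner, did not pass the test. It gave 9.82, 9.96, 9.98 and 9.97 with AdGFP and 9.87, 9.78, 9.65 and 9.82 with AdHIF1a, lower in 3 of 4 rats. The difference was -0.15 ± 0.09 (95% interval -0.36 to 0.06, adjusted p = 0.299). Arnt2, the paralogue that can also pair with these factors, fell by 0.54 ± 0.08 (adjusted p = 0.00494). Every AdHIF1a well (5.79 to 6.00) lay below every AdGFP well (6.17 to 6.53), as in 12.2% of all genes.

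The HIF alpha subunits also pair with Arnt. Hif1a gave 11.03 to 11.32 with AdGFP and 10.48 to 10.77 with AdHIF1a on its rat probe set (-0.48 ± 0.08, adjusted p = 0.00624), and whether this probe set detects the insert was not tested. Epas1, which encodes HIF2a, differed by -0.33 ± 0.11 (adjusted p = 0.0860) and was called in 4 alternative fits, with an adjusted p from 0.0275 to 0.0488. Hif3a, which encodes an inhibitory subunit, rose by 1.22 ± 0.12 from 5.37 ± 0.29 (SD, adjusted p = 0.000789). Among 15 measured bHLH-PAS genes other than Ahr and Ahrr, 2 were higher and 2 lower, where 20.2% of all genes were called in either direction. The second higher one was Per2, a repressor of the circadian clock (1.08 ± 0.13, adjusted p = 0.00167).

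Of 17 further measured genes reported to be induced through Ahr, 6 were lower and 1 higher, against 11.5% and 8.68% of all genes, with a median difference of -0.13. With the variance prior from all probe sets 3 were lower and 0 higher, against 7.77% and 5.68%. Without rat 2 or rat 4, 3 were lower and 0 higher. Of all 18166 genes, these 2 fits called 1266 and 1196 lower and 929 and 921 higher. The median difference of the 17 genes was -0.26 without rat 1 and -0.03 without rat 2. Nqo1, a quinone reductase of the Ahr battery, gave 10.47, 10.89, 11.00 and 10.65 with AdGFP and 10.42, 10.16, 10.65 and 9.95 with AdHIF1a. Rat 1 hardly differed (-0.05), and the groups overlapped. Nqo1 fell by 0.46 ± 0.13, or 1.37-fold (95% interval 1.11 to 1.69, adjusted p = 0.0448). That call was lost without rat 2, 3 or 4 (adjusted p = 0.168, 0.101 and 0.172), with quantile normalization (0.0603), without the block (0.0835), with a random block (0.0544) and with the prior from all probe sets (0.0985).

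Gsta1, a glutathione transferase, was lower in 4 of 4 rats (-0.34, -0.38, -0.22 and -0.39), as were 20.4% of all genes. It fell by 0.33 ± 0.08 (adjusted p = 0.0246). Its call was lost without the block (0.148), with a random block (0.0917), with the prior from all probe sets (0.0564) and without rat 2 or rat 4 (0.117 and 0.110). Glutathione transferases of the alpha class have close relatives, so its signal may be shared. Xdh, the xanthine oxidoreductase that makes urate, gave 8.28, 8.51, 8.24 and 8.09 with AdGFP and 7.71, 7.40, 7.61 and 6.97 with AdHIF1a. The groups of Xdh did not overlap, a separation found, with AdHIF1a lower, in 12.2% of all genes. Xdh fell by 0.86 ± 0.12, or 1.81-fold (95% interval 1.49 to 2.21, adjusted p = 0.00325).

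Socs2, a feedback inhibitor of cytokine receptors, and Ereg, the epidermal growth factor receptor ligand epiregulin, had the largest differences of the list and fell by 1.35 ± 0.16 and by 1.14 ± 0.12 (adjusted p = 0.00143 and 0.00117). Neither gene's groups overlapped, a separation found, with AdHIF1a lower, in 12.2% of all genes. Both are controlled by several pathways besides Ahr. Nedd9, a docking protein of focal adhesions, fell by 0.32 ± 0.09 (adjusted p = 0.0385). It was named after its values were seen, and its call was lost without any 1 of the 4 rats (adjusted p from 0.0561 to 0.169), with quantile normalization (0.0594) and with the prior from all probe sets (0.0805).

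The 1 higher gene was Slc7a5, an importer of large amino acids that HIF can also induce, at 0.34 ± 0.09 (adjusted p = 0.0317). Its call was lost without any 1 rat (adjusted p from 0.0648 to 0.159), after median centring (0.185) and with the prior from all probe sets (0.0707). Nfe2l2, which encodes the antioxidant regulator Nrf2 and is itself listed as an Ahr target, differed by 0.05 ± 0.08 (adjusted p = 0.717), and by -0.0325 after median centring. Cyp2s1, a P450 reported as a target of both factors, differed by -0.32 ± 0.13 (adjusted p = 0.145). The difference was -0.47 and called without rat 3 (adjusted p = 0.0384), and -0.20 without rat 4.

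Nqo1 is also a standard target of Nrf2. Of 7 other Nrf2 targets measured, 4 were higher and 1 lower (8.68% and 11.5% over all genes), with a median difference of 0.50. Hmox1, the heme oxygenase that HIF1 also induces, rose by 1.88 ± 0.08 (adjusted p = 4.02e-05). Gclc and Gclm, the subunits of the enzyme that starts glutathione synthesis, rose by 1.41 ± 0.11 and 0.50 ± 0.10, and Srxn1, a sulfiredoxin, by 0.61 ± 0.09. Gclm was not called without rat 2 or rat 4 (adjusted p = 0.0656 and 0.0599). The lower gene was Osgin1, a growth inhibitor induced by oxidative stress, at -0.61 ± 0.14 (adjusted p = 0.0226). Osgin1 was named after its values were seen, and its call was lost without rat 3 or rat 4 (0.0635 and 0.0628) and with the prior from all probe sets (0.0611).

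**Figure D2:**
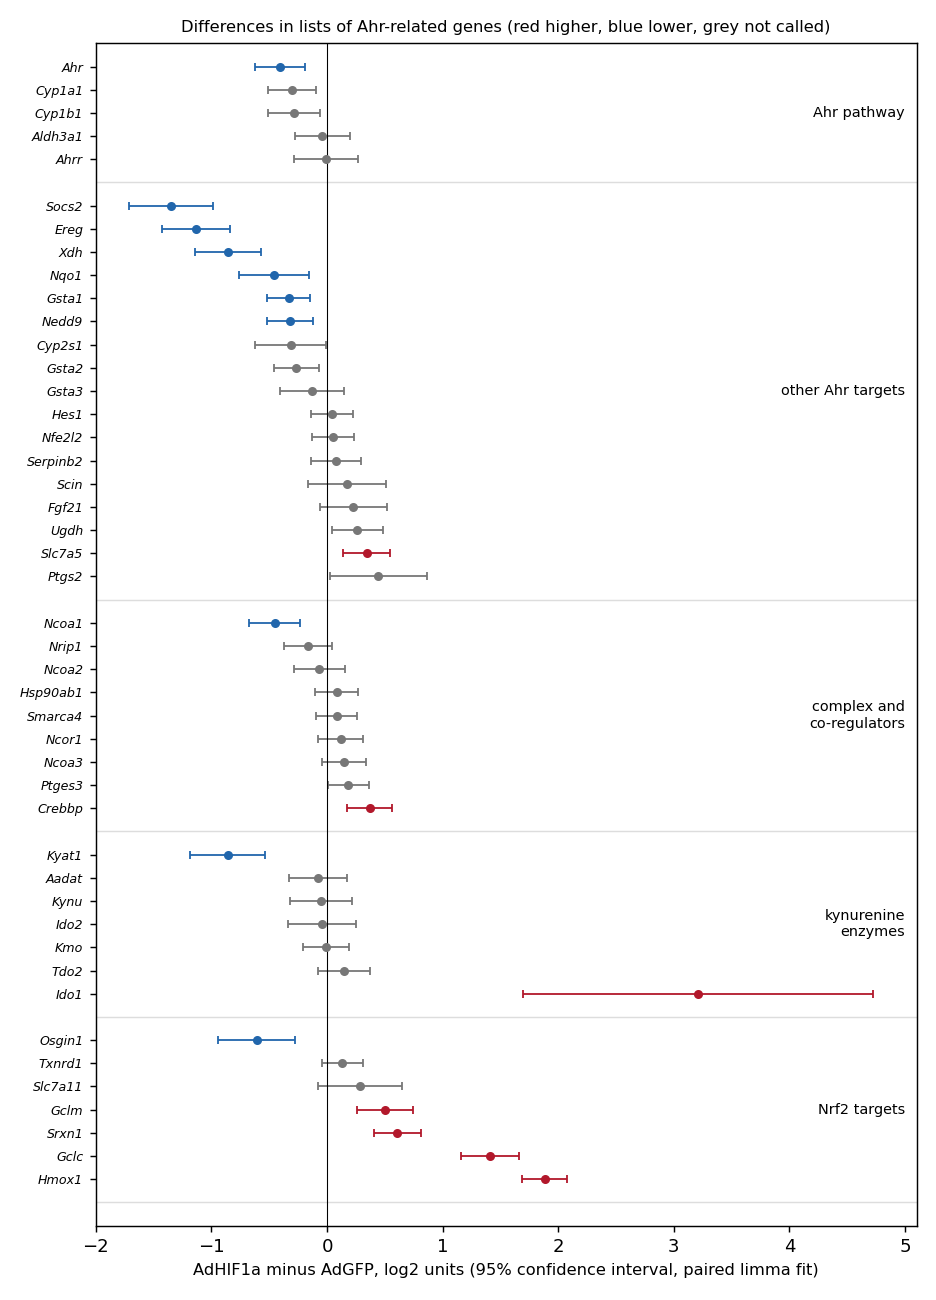
AdHIF1a minus AdGFP differences (horizontal axis, log2 units) with 95% confidence intervals from the paired limma fit, for the members and for lists of other Ahr targets, complex genes, kynurenine enzymes and Nrf2 targets; red marks genes called higher, blue lower and grey neither. The called targets reach from -1.35 (Socs2) to 0.34 (Slc7a5), against -0.41 for Ahr and 3.21 for Ido1.

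Of 9 measured genes of the cytosolic Ahr complex and its co-regulators, 1 was higher and 1 lower, against 8.68% and 11.5% of all genes. The chaperone gene Hsp90ab1 and the co-chaperone gene Ptges3, both named outside the rule, differed by 0.08 ± 0.08 and 0.19 ± 0.08 (adjusted p = 0.538 and 0.144). Ncoa1, a co-activator, fell by 0.45 ± 0.09 (adjusted p = 0.0144), and was not called without rat 2 or rat 4 (0.0625 and 0.0699). Crebbp, the acetyltransferase that serves both Ahr and HIF, was higher by 0.37 ± 0.08 (adjusted p = 0.0204). The call of Crebbp was lost after median centring (0.128), with the prior from all probe sets (0.0506) and without rat 2, 3 or 4 (0.0856, 0.0802 and 0.0714).

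Among 7 measured enzymes of the pathway from tryptophan to kynurenine and its products, some of which are Ahr ligands, 1 was higher and 1 lower, against the same shares of all genes (8.68% and 11.5%). Ido1, the dioxygenase that opens the tryptophan ring, gave 9.65, 6.03, 8.71 and 5.18 with AdGFP and 10.82, 10.70, 10.58 and 10.30 with AdHIF1a. The AdGFP wells thus differed widely between rats, and the AdHIF1a wells were all high. The differences within rats were 1.17, 4.67, 1.87 and 5.12, and Ido1 rose by 3.21 ± 0.64 (95% interval 1.69 to 4.72, adjusted p = 0.0129). Kyat1, an aminotransferase that turns kynurenine into kynurenic acid, gave 8.04, 8.27, 8.11 and 8.25 with AdGFP and 7.61, 7.32, 7.34 and 6.96 with AdHIF1a. Its groups did not overlap, a separation found, with AdHIF1a lower, in 12.2% of all genes. Kyat1 fell by 0.86 ± 0.14 (adjusted p = 0.00531).

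**Figure D3:**
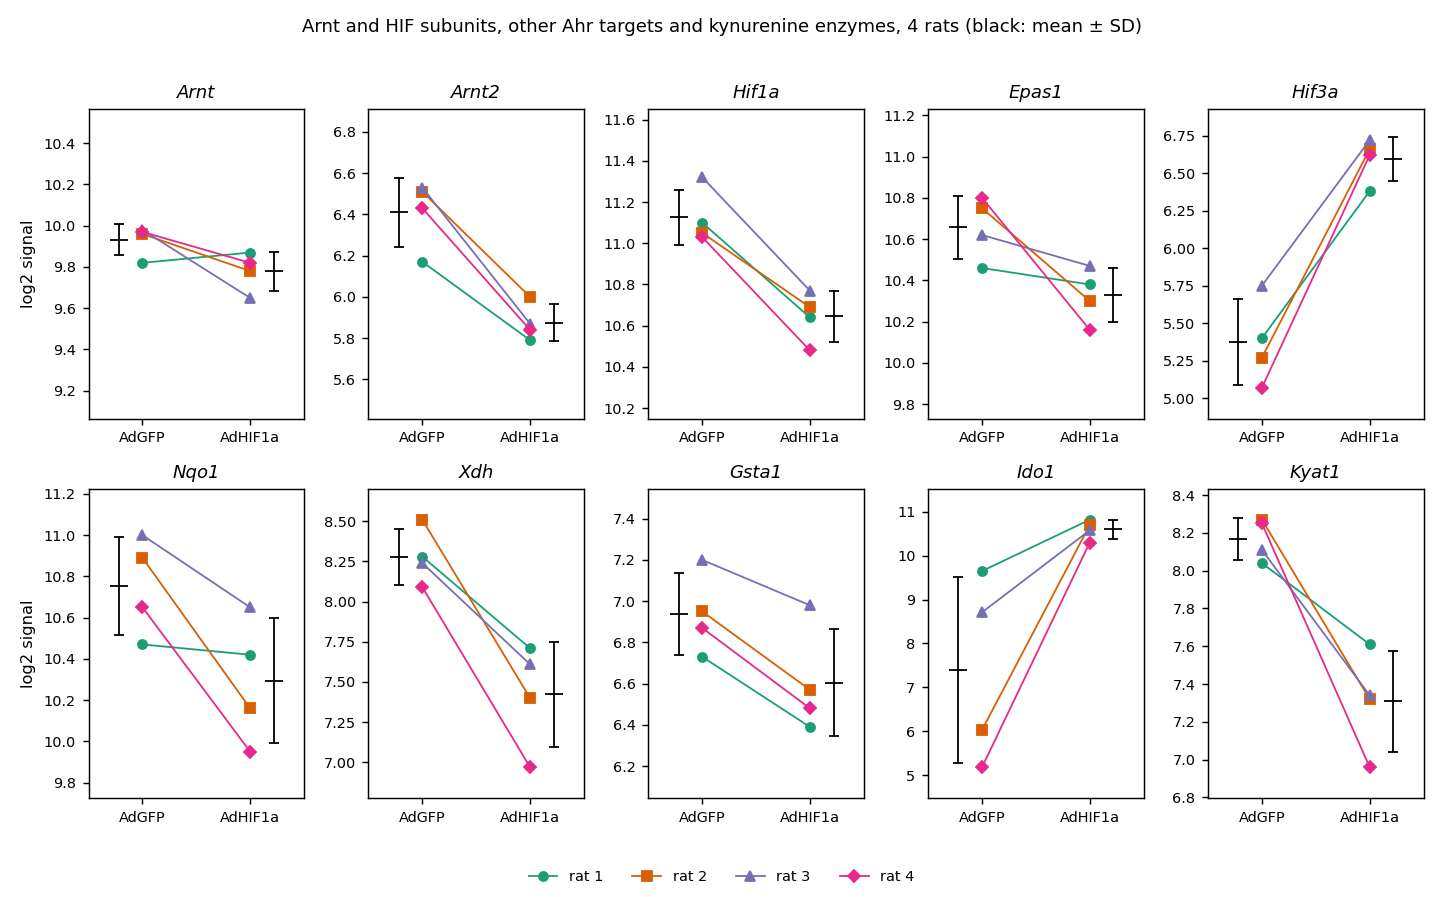
Log2 signal (vertical axis) of Arnt, Arnt2, 3 HIF alpha subunit genes, 3 other Ahr targets, Ido1 and Kyat1 in the AdGFP and AdHIF1a wells of 4 rats; lines join the wells of a rat and black marks give the mean ± SD. Ido1 starts between 5.18 and 9.65 and ends between 10.30 and 10.82, and the lines of Arnt cross.

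Markers of other cell types differed in the same wells, where 11.5% of all genes were called lower and 8.68% higher. Of the alveolar type I markers, 6 of 7 were lower. That count was 4 with an adjusted p under 0.01 and 7 without the block, where 1084 and 1955 of all 18166 genes were lower. With the prior from all probe sets it was 5, where 7.77% of all genes were lower. The mean signal of these markers per array lay between 8.81 and 9.45 with AdGFP and between 7.56 and 8.22 with AdHIF1a. Their single AdGFP means ranged from 4.635 (Rtkn2) to 12.55 (Ager), the latter above that of the ATII marker Lamp3 (12.20). The largest differences were those of Akap5 (-2.54 ± 0.24), Aqp5 (-2.49 ± 0.30), Pdpn (-1.44 ± 0.16) and Ager (-1.08 ± 0.14). Of the ciliated cell markers, 3 of 4 were lower, with mean signals of 6.12 to 6.45 and 5.47 to 5.91, and Tppp3 differed most (-1.23 ± 0.17). Of the club cell markers, 2 of 5 were lower, with mean signals of 7.13 to 7.58 and 6.80 to 7.03, and 1 of 5 was lower without rat 2 or rat 4 or with the prior from all probe sets. Of the macrophage markers, 2 of 5 were lower, Mrc1 (-0.82 ± 0.19) and Csf1r (-0.46 ± 0.11). The count was 0 without the block, with a random block, with the prior from all probe sets and without rat 1 or rat 2, and 1 macrophage marker was higher without rat 1. Without rat 4 the count of lower macrophage markers was 1. Over all genes, lower calls numbered 1955 without the block, 2261 with a random block and 2284, 1266 and 1196 without rat 1, 2 or 4. Higher calls numbered 1519 without rat 1. No endothelial marker of 3 and no fibroblast marker of 6 was called, and the smallest p in these lists belonged to Cdh5 (0.24 ± 0.10) and Pdgfra (-0.17 ± 0.09). Mean signals of the macrophage markers were 6.81 to 7.82 and 6.26 to 7.43, those of the endothelial markers 4.38 to 4.64 and 4.6 to 4.71, and those of the fibroblast markers 4.93 to 5.07 and 4.76 to 5.00. The part of these cells in the differences of Ahr, Nqo1 and the other called targets was not tested.

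**Figure D4:**
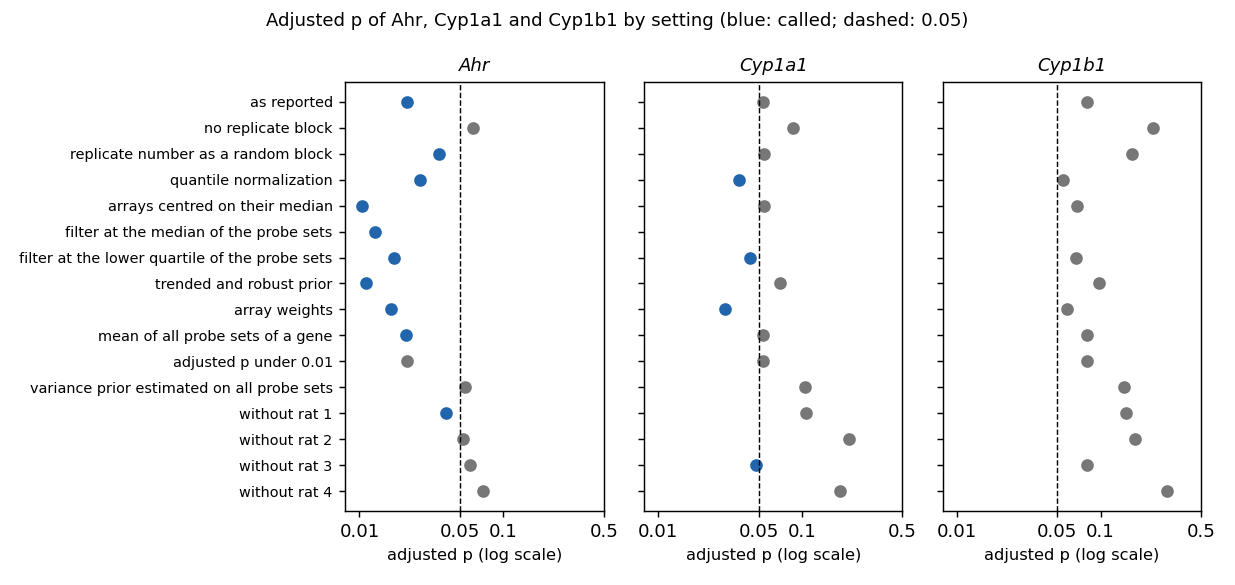
Adjusted p (horizontal axis, log scale) of Ahr, Cyp1a1 and Cyp1b1 under each setting; blue marks a call, grey none (at the setting with the threshold of 0.01, by that threshold), and the dashed line is at 0.05. Ahr spans 0.0105 to 0.0725 and Cyp1a1 0.0290 to 0.212, on both sides of the line, and Cyp1b1 stays right of it, from 0.0549 to 0.291.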

How the data were processed

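Total RNA of 8 wells from 4 rats was measured on 8 Affymetrix arrays. The authors deposited log2 signals per probe set, to 2 decimals, made with Affymetrix Expression Console per the submitters' processing notes. The sources used here give no algorithm, version or genome build, and the values themselves show the log2 scale. Upper quartiles of the arrays were 7.62 to 7.68, so a shift of all genes together would not be seen. The precision is limited by the number of arrays.

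Of 36685 probe sets, 18511 carried 1 symbol, 575 several and 17599 none. Gene identifiers of 18394 matched RefSeq (GRCr8), which changed 0 symbols. The probe set with the highest mean stood for a gene. Limma 3.58.1 in R 4.3.3 (lmFit, eBayes, rat as a fixed block, two-sided) was fitted on the 18166 genes and checked on simulated data. The simulated variances were drawn from the prior of that same fit, so the check could not test the choice of prior. The prior taken from all probe sets, an alternative chosen after seeing the data, called 2443 genes (13.4%) in place of 3674 (20.2%). The series' design pairs the wells of a rat. Their deviations from the group means correlated at 0.18 to 0.26 across genes, against -0.22 to 0.08 between rats.

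The members and lists were chosen with earlier results of these data known. All members were named. From each other list the 4 called genes with the smallest adjusted p and the gene with the largest difference were named, or the 2 with the smallest p where none was called. Likeness was the root mean square distance over the 8 arrays, with 3 genes named for each of 2 members. Named in any case were Arnt, Arnt2, Hif1a, Epas1, Nqo1, Nfe2l2, Cyp2s1 and Slc7a5. One gene of the rule is not reported here. Nedd9, Osgin1, Hsp90ab1, Ptges3 and Scgb1a1 were added after seeing the data. Promoter sequences are from RefSeq (GRCr8). The table used here held those of 5 of the 7 listed members (Ahr, Ahrr, Cyp1a2, Cyp1b1 and Tiparp). The alternatives, given with their effect in the closing section, concerned the block, the scaling, filters on dim probe sets, the variance prior, array weights, probe set averaging, the threshold and each rat left out in turn.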

Additional observations from a re-analysis of the deposited data

Results flagged for a closer look

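In groups of 4 wells, a value was singled out when its gap to the nearest other well exceeded the 95% critical share of the group's range in Dixon's test. This was met in 7 of 110 groups checked over 55 named genes, and chance gives about 1 in 20. No group of Ahr, Ahrr, Cyp1a1, Cyp1b1 or Aldh3a1 was among them. The AdGFP well of rat 1 was low for Arnt, at 9.82 against 9.96 to 9.98, and low for Cyp2s1, at 7.17 against 8.03 to 8.10. The same well was high for Osgin1, at 8.17 against 7.36 to 7.42. The AdHIF1a well of rat 1 was low for Scgb1a1, at 12.42 against 12.75 to 12.79. In rat 3, the AdHIF1a well was low for Ndrg1, an HIF1 target, at 12.94 against 13.06 to 13.07, and the AdGFP well was low for Cyp4b1, at 6.63 against 7.93 to 8.14. The AdHIF1a well of rat 4 was low for Col1a1, at 5.50 against 5.78 to 5.81.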

How the results depend on the processing

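The count of members called lower was 1 in the reported fit. It was 0 without the replicate block, with an adjusted p under 0.01 and with the variance prior from all probe sets. It was 2 (Ahr and Cyp1a1) with quantile normalization, array weights and the filter at the lower quartile, and ranged from 0 to 1 with each rat left out. Of all 18166 genes, 2098 were lower in the reported fit, 2169 with quantile normalization and 2759 with array weights. With the filter at the lower quartile, 2227 of 15319 genes were lower. Without the block 1955 genes were lower, and with the prior from all probe sets 1411. The filter at the median tested Ahr alone of the 5 members, and that at the lower quartile left out Ahrr. In these fits 0 members were called higher. Differences of Ahr, Cyp1a1 and Cyp1b1 were negative in every fit that tested them. They were negative in every rat, so leaving out a rat could not turn their sign. The differences of Ahrr and Aldh3a1 turned to 0.050 and 0.028 with array weights. With a rat left out, Ahrr ranged from -0.13 to 0.10, Aldh3a1 from -0.12 to 0.023 and Scgb1a1 from -0.02 to 0.14. After median centring Nfe2l2 turned to -0.0325, the endothelial marker Vwf to -0.0175 and Scgb1a1 to -0.0475. Over all genes, higher calls numbered 936 after median centring, 794 with an adjusted p under 0.01, 1032 with the prior from all probe sets and 921 to 1519 with a rat left out. Lower calls numbered 1084 with an adjusted p under 0.01 and 1196 to 2284 with a rat left out. The cause was not tested. The low signals of Cyp1a1, Cyp1b1, Ahrr and Aldh3a1 limit what a fall could show.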

Other observations

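The club cell list held 3 P450 genes that are not classic Ahr targets, of which Cyp4b1 and Cyp2b1 were called lower and Cyp2f4 differed by 0.025 ± 0.076 (adjusted p = 0.861). Cyp4b1, a P450 abundant in lung, gave 7.93, 8.09, 6.63 and 8.14 with AdGFP and 7.18, 6.39, 6.07 and 6.38 with AdHIF1a. It was lower in 4 of 4 rats, as were 20.4% of all genes, and fell by 1.19 ± 0.22 (adjusted p = 0.00845). Cyp2b1, the rat form of the P450s that respond to phenobarbital in liver, gave 7.91, 8.68, 7.94 and 8.67 with AdGFP and 7.38, 7.28, 7.52 and 6.28 with AdHIF1a. The groups of Cyp2b1 did not overlap, a separation found, with AdHIF1a lower, in 12.2% of all genes. Cyp2b1 fell by 1.19 ± 0.31 (adjusted p = 0.0334), a call lost without rat 2 or rat 4 (0.0922 and 0.0518) and with the prior from all probe sets (0.0846). Close relatives of Cyp2b1 may share its signal. Scgb1a1, the main secretory protein of club cells, gave 12.55 to 12.70 with AdGFP and 12.42 to 12.79 with AdHIF1a, a difference of 0.04 ± 0.10 (adjusted p = 0.855), which was -0.05 after median centring.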
